A study of Mus musculus and Homo sapiens with 12 samples.

Results

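The DEAD-box and DEAH-box RNA helicases other than DDX21 were followed in 2 experiments that lowered DDX21 in blood progenitors, 1 in mouse and 1 in human cells. Members were all genes whose symbol begins with DDX or DHX and a digit, whatever the case, except DDX21 itself, its closest relative DDX50, the Y-linked DDX3Y, and the innate immune sensor genes DDX58, DDX60, DDX60L and DHX58. Only genes listed in the deposited normalised tables could enter. These hold 11908 genes in mouse and 18674 in human, against 55487 and 78932 in the raw tables. Within the normalised tables this rule uses names and no measured value. It found 48 symbols among the 17079 symbols of the deposited normalised tables: 44 in both species, 1 in mouse only (Ddx4) and 3 in human only (DDX11-AS1, DDX19A-DT and DDX20P1, named for an antisense, a divergent and a pseudogene transcript), giving 45 genes in mouse and 47 in human. RNA was sequenced from 12 libraries in 4 groups of 3. The mouse groups are LK cells (lineage-negative, Kit-positive progenitors) of fetal liver at E13.5, the embryonic stage given, either Ddx21 f/f (WT) or Vav-Cre;Ddx21 f/f (cKO), so that both carry the floxed allele and Cre, driven by the Vav promoter of blood cells, is present in the cKO alone. The human groups are blood stem cell-like cells from H1, which is 1 embryonic stem cell line, which received lentiviral vectors with either a control hairpin (shNC) or one against DDX21 (shDDX21) and were sorted 2 days after transduction as CD34+ CD45+ CD43+ cells positive for the hairpin vector. Whether replicate libraries stem from separate embryos, pools or cultures is not stated in the labels, so p-values measure the spread between these libraries, which may be technical.

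DEAD-box and DEAH-box proteins share a core that binds RNA and ATP and uses them to open RNA duplexes or to strip proteins from RNA. The 4 residues of motif II, which hold the ATP-bound magnesium, give the families their names: aspartate, glutamate, alanine, then aspartate (DEAD) or histidine (DEAH). Members act at nearly every step of RNA life, from transcription, splicing and ribosome assembly to export, translation and decay, and DEAH-box proteins often need a protein with a G-patch domain to activate them. DDX21 is a nucleolar member that acts on ribosomal RNA synthesis and processing.

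The coding bases around motif II are shown because the families are named for this motif, which played no part in choosing members, and because they show how close paralogues such as Ddx5 and Ddx17 are to each other. They were read from the longest open reading frame of GENCODE M21 mouse transcripts (GRCm38), 5′ to 3′ on the coding strand, as 45 bases with the 4 motif codons in capitals. The pattern was found in 44 of the 45 mouse members: DEAD in 25, DEAH in 9, DEVH in 4, DECD in 2, DEIH in 2, and DESD and DEVD in 1 each, with none found in Dhx32.
Ddx1: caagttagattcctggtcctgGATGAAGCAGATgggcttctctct
Ddx18: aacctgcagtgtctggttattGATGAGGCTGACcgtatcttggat
Ddx6: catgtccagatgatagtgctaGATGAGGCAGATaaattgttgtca
Ddx5: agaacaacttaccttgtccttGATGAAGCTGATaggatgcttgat
Ddx17: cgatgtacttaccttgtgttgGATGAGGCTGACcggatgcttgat
Ddx39b: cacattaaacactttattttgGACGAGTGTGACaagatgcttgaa
Dhx15: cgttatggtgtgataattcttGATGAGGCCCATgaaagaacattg
Ddx11: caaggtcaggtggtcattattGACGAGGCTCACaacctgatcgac
Between paralogues, Ddx19a and Ddx19b matched at all 45 bases of this window, Ddx5 and Ddx17 at 35, and Ddx39a and Ddx39b at 33. Over the whole exon sequence, 831 of the 50-base words of Ddx19a (28.13%) also occurred in Ddx19b, against 0 between Ddx5 and Ddx17 and 0 between Ddx39a and Ddx39b, so reads of the Ddx19 pair may not always be told apart. Ddx39b and Ddx39a carry DECD, and Ddx11 carries DEAH despite its DDX name.

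Libraries held 21116079 to 23898130 counts in mouse and 15289510 to 19798608 in human, and the typical spread between replicate libraries (biological coefficient of variation) was 10.5% in mouse and 2.23% in human. Ddx21 itself stood at 1410 to 1430 CPM (counts scaled to library size) in WT and 276 to 283 in cKO, and DDX21 at 465 to 477 in shNC and 67.0 to 69.2 in shDDX21. Of the progenitor markers, 4 of the 10 found were higher and 3 lower in mouse (Cd34 from a mean of 134 to 215 CPM, Kit from 362 to 317), and 4 of the 8 found were higher and 4 lower in human (TAL1 from 676 to 982, GATA2 from 435 to 200). Summed hepatocyte markers (11 found) were 5.2 to 6.42 CPM in WT and 37.5 to 40.6 in cKO, and all 6 that were tested were higher. Summed endothelial markers (10 found, Cldn5 at 0) were 84.8 to 106 CPM in WT and 134 to 166 in cKO, and macrophage markers (10 found, C1qc at 0) 8.17 to 8.96 and 7.98 to 9.52. The erythroid sum (11 found) was 334 to 424 CPM in WT and 375 to 461 in cKO, with Hbb-bt going from a mean of 39.6 to 125 and Klf1 from 112 to 50.1. In human cells erythroid markers (8 found) went from 655 to 687 CPM in shNC to 812 to 860 in shDDX21, macrophage markers (5 found) from 129 to 140 down to 76.1 to 82.1, and endothelial markers (9 found) from 2040 to 2090 down to 1860 to 1880. Summed pluripotency markers were 137 to 151 CPM in WT and 206 to 234 in cKO (9 found, Sox2 and Zfp42 at 0), nearly all of it Dnmt3b (means of 140 and 217), with Lin28a at 4.03 and 4.18. In human they were 440 to 462 CPM in shNC and 413 to 429 in shDDX21 (4 found), with LIN28A going from 157 to 209 and DNMT3B from 210 to 134. The part of these cell-type signals in the helicase results was not tested, and in such bulk samples fewer cells of a type and less RNA per cell cannot be told apart.

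The members varied widely in level in both systems. Since only genes of the normalised tables could be members, their levels do not tell how much of the family was expressed. Levels between genes are compared per kilobase of exon (RPKM, from scaled library sizes). In WT LK cells the 45 members ranged from 0.786 RPKM (Ddx4) to 281 (Ddx3x), with a median of 28.7, and 37 stood at 10 RPKM or more. The 3 highest were Ddx3x at 281 ± 5.19 RPKM (SD, n = 3), a helicase of translation initiation, Ddx5 at 195 ± 6.87, a coregulator of transcription and splicing, and Ddx39b at 151 ± 0.701, a spliceosome and mRNA export factor. These 3 did not overlap in their spread. The lowest after Ddx4 were Dhx34 at 3.88 ± 1.22 RPKM and Dhx57 at 4.11 ± 0.264, which differed by less than their spread. In shNC cells the 47 members ranged from 0.209 to 143 RPKM with a median of 9.32, and 22 stood at 10 or more. DDX17, the paralogue of DDX5, was highest at 143 ± 1.39 RPKM, then DDX5 at 114 ± 0.595 and DHX9, which unwinds RNA and RNA-DNA hybrids, at 67.4 ± 0.580. The lowest were DDX11-AS1 at 0.209 ± 0.0753, DDX19A-DT at 0.451 ± 0.132 and DDX39B at 0.470 ± 0.0696 RPKM, the last pair within their spread.

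Human DDX39B and DDX47 (0.757 ± 0.0446 RPKM) stood low beside mouse Ddx39b and Ddx47 (30.8 ± 0.442 RPKM). In the deposited human annotation 30.8% of DDX39B and 36.5% of DDX47 exon bases also belong to another gene on the same strand, against 4.4% and 0% in mouse. How the authors' counting treated reads in such shared exons is not given in the sources used here, so the human levels of both are uncertain. DDX19A (23.9%) and DDX19B (16%) were the other human members with more than 10% of exon bases shared on the same strand, and no mouse member was. Counting either strand, 10 human and 4 mouse members had more than 10% shared, among them Ddx49 (29.8%) and Ddx54 (15.5%). Whether counting was by strand is not given in the sources used here. Over the 44 genes, mouse and human control RPKM had a Spearman rho of 0.502, and 0.625 without DDX39B and DDX47 (n = 42), as a description across genes that are not replicates.

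In human cells most helicase transcripts were lower with the DDX21 hairpin. A gene is called here at an adjusted p under 0.05 (edgeR quasi-likelihood test on counts, Benjamini-Hochberg adjustment over all genes tested). Of 47 members, 29 were lower, against 27.4% of the 20188 genes tested, and 4 were higher, against 25.3%. The median log2 fold change of the members was -0.19, beside 0.01 for all genes tested. Fewer were called in mouse LK cells. There 9 of 45 members were lower, against 15.8% of 14918 genes, and 2 were higher, against 20.7%, with a median of -0.11 beside 0.00 for all genes. Of these calls, 25 of the 29 human decreases held under all 13 alternatives tried, and 3 of the 9 mouse decreases (Ddx6, Ddx19a and Ddx23) under all 15. The mouse count of 9 was 5 without cKO library 3, 6 without WT library 1 or 2, and 16 without WT library 3 and cKO library 2 together.

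**Figure D1:**
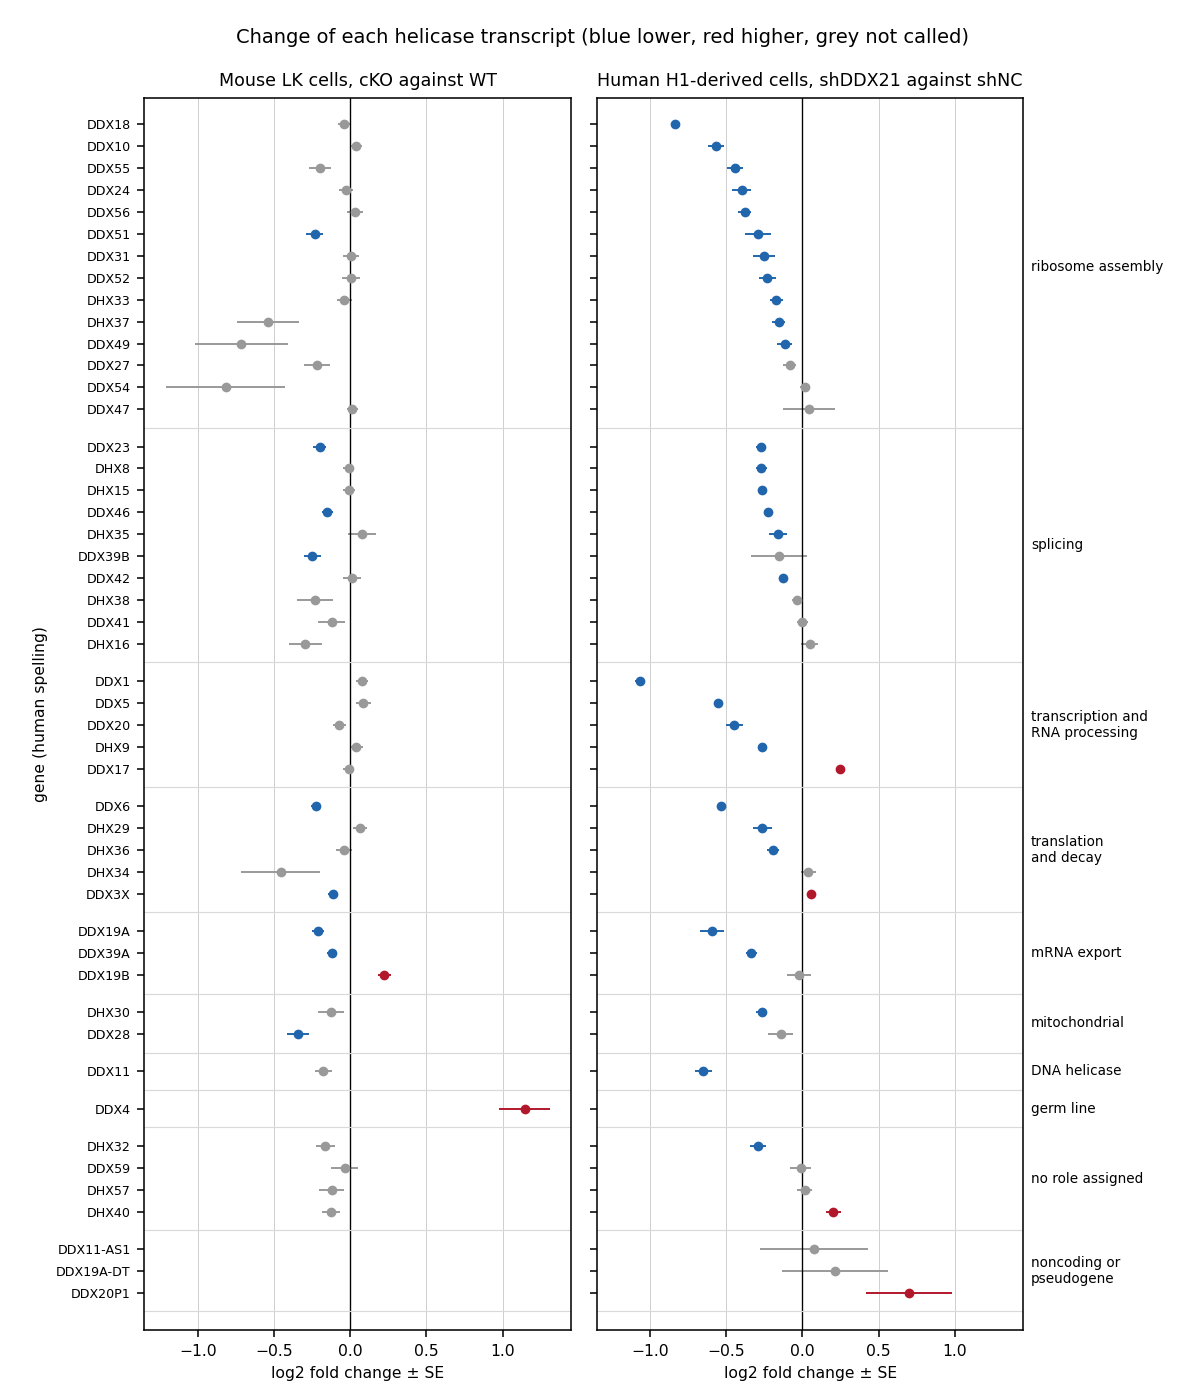
Log2 fold change with its standard error (horizontal axis) for each helicase gene (vertical axis, human spelling, grouped by role) in mouse cKO against WT cells (left) and human shDDX21 against shNC cells (right). Blue points are called lower, red higher and grey not called. DDX1 and DDX18 lie farthest left in human, at -1.07 and -0.83, while in mouse the farthest left points, Ddx54 and Ddx49, have the longest error bars.

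The helicases of transcription and RNA processing held the largest human change. DDX1, which belongs to the tRNA ligase complex and acts on RNA-DNA hybrids, lies at chr2:15591178-15634346 (hg38, plus strand; ENSG00000079785). It measured 216, 218 and 221 CPM in the 3 shNC libraries and 105, 105 and 103 in the shDDX21 libraries, so the groups lay far apart. The log2 fold change was -1.07 (SE 0.030, edgeR adjusted p = 2.02e-43), the largest decrease among human members. Mouse Ddx1 (chr12:13216973-13249213, mm10, minus strand) measured 343, 337 and 354 CPM in WT and 351, 378 and 361 in cKO. These groups overlapped, and the estimate was 0.08 (SE 0.041, adjusted p = 0.173).

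DDX5 and DDX17 are paralogues that act together as coregulators of transcription, splicing and microRNA processing, and in human cells they moved in opposite directions. DDX5 (chr17:64498254-64508199, hg38) measured 1055, 1066 and 1064 CPM in shNC and 712, 725 and 732 in shDDX21, a log2 change of -0.55 (SE 0.020, adjusted p = 5.23e-37). DDX17 (chr22:38483438-38507660, hg38) measured 1444, 1417 and 1437 CPM in shNC and 1697, 1704 and 1704 in shDDX21, a log2 change of 0.25 (SE 0.018, adjusted p = 4.99e-20). Neither gene's groups overlapped. The log2 ratio of DDX5 to DDX17 went from a mean of -0.43 to -1.23 over the 3 libraries of each group, with an exact two-sided permutation p of 0.1, the smallest that 3 against 3 libraries allow (0.12 adjusted over the 6 paralogue ratios compared). The paralogue pairs were picked for this comparison after their values had been seen. In mouse, Ddx5 measured 1111, 1095 and 1170.01 CPM in WT and 1148, 1261 and 1176 in cKO (log2 fold change 0.09, adjusted p = 0.191), and Ddx17 had an estimate of -0.01 (adjusted p = 0.848). Neither was called. The mouse ratio was 0.74 in WT and 0.84 in cKO, with the 3 libraries of each group apart and the same exact permutation p of 0.1 (0.12 adjusted). Of the other members of this role, DDX20, a component of the SMN complex that assembles spliceosomal particles, was lower in human at -0.45, and DHX9 was lower at -0.27 (401, 397 and 394 CPM in shNC, 331, 335 and 326 in shDDX21). In all, 4 of the 5 were lower and 1 higher in human, beside 27.4% and 25.3% of all genes. In mouse 0 of 5 were called, with estimates from -0.07 to 0.09, 0 had an unadjusted p under 0.05 and DESeq2 called 0. With the GC offset described below, however, edgeR called mouse Ddx5 (0.09, adjusted p = 0.0203) and Ddx1 (0.08, adjusted p = 0.0426) higher.

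**Figure D2:**
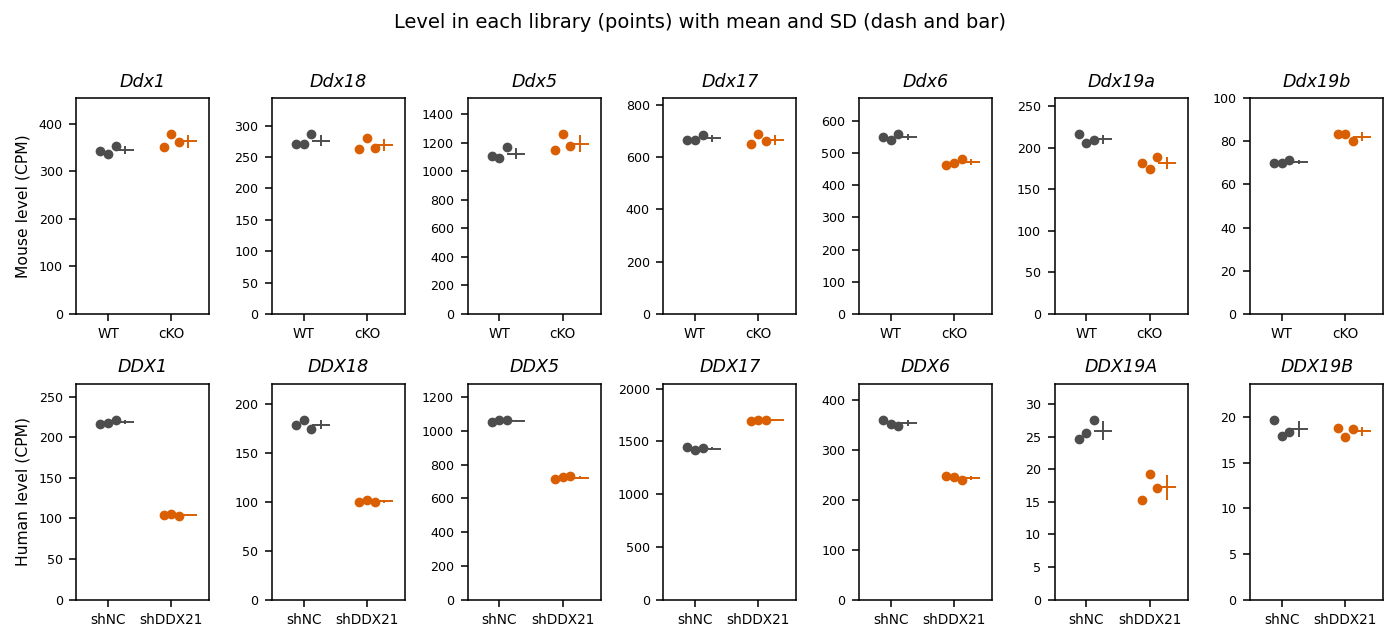
Level of 7 helicase transcripts (vertical axis, CPM from 0) in each of the 3 libraries per group (points), with the group mean and SD (dash and bar) beside them, in mouse (top) and human (bottom). Human DDX1, DDX18, DDX5 and DDX6 are lower and DDX17 higher in all 3 shDDX21 libraries, while in mouse Ddx6 and Ddx19a are lower and Ddx19b higher in all 3 cKO libraries.

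The 14 helicases of ribosome assembly, the process DDX21 itself serves, were mostly lower in human cells. There 11 of 14 were lower, against 27.4% of all genes, and 0 higher by edgeR, against 25.3%, with a median log2 fold change of -0.24. DESeq2 and an unadjusted p under 0.05 also gave 0 higher. The decrease was not limited to this role: of the 33 other human members 18 were lower and 4 higher, with a median of -0.16. DDX18, a nucleolar helicase of the large subunit, measured 179, 184 and 174 CPM in shNC and 99.3, 102 and 99.5 in shDDX21, a log2 change of -0.83 (SE 0.032, adjusted p = 1.42e-35). DDX10, a small subunit factor, measured 49.7, 49.3 and 50.8 CPM in shNC and 34.6, 33.9 and 32.4 in shDDX21, a change of -0.57 (SE 0.053, adjusted p = 1.65e-15). Neither gene's groups overlapped. The 9 other decreases ran from -0.44 (DDX55) through DDX24 (-0.40), DDX56 (-0.38), DDX51 (-0.29), DDX31 (-0.25), DDX52 (-0.23), DHX33 (-0.17) and DHX37 (-0.16) to -0.12 (DDX49). The call of DDX49 (adjusted p = 0.0347) was lost without shNC library 1 or 2 or shDDX21 library 2 or 3 (adjusted p = 0.0549 to 0.185), and for DDX56 23.6% of exon bases overlap a gene on the other strand. The DDX49 call was also lost with upper-quartile factors, a filter of at least 1 count and DESeq2, and that of DHX37 with upper-quartile factors. DDX27 (-0.08), DDX54 (0.02) and DDX47 (0.05) were not called.

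In mouse 1 of the 14, Ddx51, was called lower, against 15.8% of all genes, and 0 were higher by edgeR, by DESeq2 or at an unadjusted p under 0.05. This count depended on the processing. It was 3 with RLE factors or DESeq2 (Dhx37 among them by DESeq2, adjusted p = 0.00466), 4 without WT library 3, 6 without cKO library 1, 5 with the GC offset described below, and 0 without WT library 1 or 2 or cKO library 3. Ddx51, which acts in maturation of the large subunit RNA, measured 91.3, 96.0 and 84.0 CPM in WT and 78.8, 77.3 and 74.6 in cKO, a log2 change of -0.23 (SE 0.058, adjusted p = 0.0182). Its groups did not overlap, but the call was lost without WT library 1 (adjusted p = 0.0612), WT library 2 (0.0662) or cKO library 3 (0.0786), and with total counts. The median over the 14 was -0.04, and 0.03 when libraries were scaled by total counts, which moved the median of all genes to 0.07. Ddx18 (271, 272 and 287 CPM in WT, 263, 280 and 265 in cKO; -0.04) and Ddx10 (163, 158 and 168 in WT, 168, 172 and 163 in cKO; 0.04) overlapped between groups and were not called.

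Wide spread between libraries accompanied the mouse estimates farthest below 0, which belonged to Ddx54, Ddx49, Dhx37 and Dhx34 and were picked out after their values had been seen. Ddx54, a nucleolar helicase, measured 135, 117 and 60.004 CPM in WT and 90.7, 36.0 and 51.0 in cKO, so that the groups overlapped and the log2 fold change of -0.82 (SE 0.390) was not called (adjusted p = 0.142). The low libraries were WT 3 and cKO 2. Across the 44 mouse members with a mean of at least 5 CPM, the deviation of WT 3 from WT 1 and 2 had a Spearman rho of 0.860 with the deviation of cKO 2 from cKO 1 and 3, and of -0.833 and -0.791 with the GC content of each gene's longest transcript. Over all 9680 genes at that level the same values were 0.679, -0.614 and -0.690, as descriptions across genes that share these libraries. The mouse log2 fold change itself had a rho of -0.630 with GC content over the members and -0.246 over all genes.

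**Figure D3:**
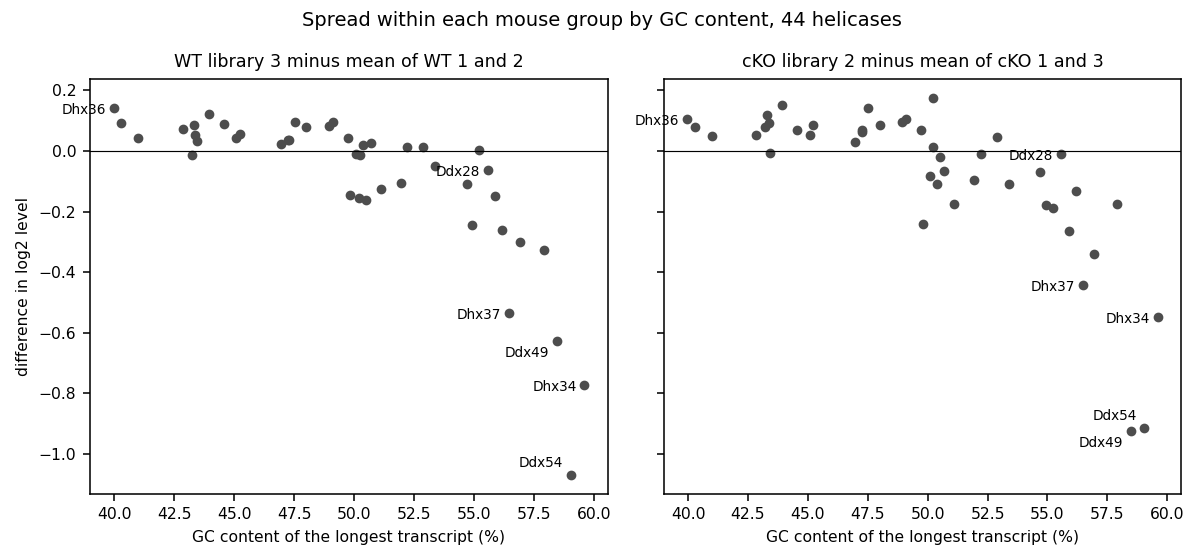
Difference in log2 level (vertical axis) between WT library 3 and the other WT libraries (left) and between cKO library 2 and the other cKO libraries (right), against the GC content of each gene's longest transcript in percent (horizontal axis), for 44 mouse helicases. Both differences fall with GC content (rho -0.833 and -0.791), and Ddx54, Ddx49, Dhx34 and Dhx37 lie lowest.

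After an offset for GC content in each library, 12 mouse members were lower, against 18.8% of genes, and 4 were higher, against 26.1%. The median of the members was then -0.04 and that of all genes 0.04. Under this offset 8 of the 11 calls remained. Those of Ddx28 (adjusted p = 0.127), Ddx39b (0.112) and Ddx39a (0.281) were lost. Newly called lower were Ddx49 (-0.49, adjusted p = 0.0191), Dhx37 (-0.37, adjusted p = 0.0100), Ddx11 (adjusted p = 0.0111), Ddx55 (0.0199), Ddx27 (0.0230) and Dhx32 (0.0387). Newly called higher were Ddx5 (0.0203) and Ddx1 (0.0426). Ddx54 (-0.56, adjusted p = 0.0531) was not called. Leaving out WT library 3 and cKO library 2 gave 16 lower members, against 19.0% of genes, and 2 higher, with all 11 calls kept. In that fit Ddx54 was called at -0.83 (adjusted p = 0.0177). Both alternatives were chosen after the data had been seen.

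Splicing helicases drive the rearrangements of the spliceosome, and 6 of 10 were lower in human (27.4% of all genes) and 3 of 10 in mouse (15.8% of all genes), with 0 higher in either by edgeR, by DESeq2 or at an unadjusted p under 0.05. In human the decreases were small, from -0.27 (DDX23 and DHX8) through DHX15 (-0.26), DDX46 (-0.23) and DHX35 (-0.16) to DDX42 (-0.13). DHX35 (adjusted p = 0.0228) lost its call without shNC library 3 (adjusted p = 0.0681) or shDDX21 library 2 (0.0645). Upper-quartile factors also lost the calls of DHX35 and DDX42, and DESeq2 that of DHX35. In mouse, Ddx39b (chr17:35241746-35253707, mm10) measured 573, 568 and 572 CPM in WT and 505, 440 and 497 in cKO (log2 fold change -0.25, SE 0.055, adjusted p = 0.0112), and with the GC offset -0.13 (adjusted p = 0.112). Ddx23, which helps to activate the assembled spliceosome, measured 353, 353 and 341 CPM in WT and 316, 288 and 307 in cKO, a change of -0.20 (SE 0.043, adjusted p = 0.00970). Groups did not overlap for either gene. Ddx46, which acts in branch site recognition, was at -0.15 (adjusted p = 0.0147), and its call was lost without cKO library 1 (adjusted p = 0.0614) or cKO library 3 (0.0606). The Ddx46 call was also lost with upper-quartile factors (adjusted p = 0.133), total counts (0.22) and DESeq2 (0.074). The remaining 7 mouse splicing helicases ran from -0.29 (Dhx16) to 0.08 (Dhx35) and were not called.

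Among the helicases of translation and decay, DDX6 was lower in both species. DDX6 represses translation and promotes decapping of mRNA in P-bodies. Mouse Ddx6 (chr9:44604892-44640731, mm10) measured 551, 542 and 559 CPM in WT and 462, 469.7 and 481 in cKO, a log2 change of -0.23 (SE 0.033, adjusted p = 0.00186). Human DDX6 (chr11:118747763-118791164, hg38), given by library after its values were seen, measured 360.1, 352 and 348 CPM in shNC and 247, 245 and 239.6 in shDDX21, a change of -0.53 (SE 0.025, adjusted p = 2.20e-30). In neither species did the groups overlap, and both calls held under every alternative.

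DDX3X, an X-linked helicase that helps scanning ribosomes through structured leaders, was called in opposite directions by small amounts. Ddx3x measured 1458, 1474 and 1511 CPM in WT and 1340.39, 1401 and 1370.5 in cKO (-0.11, SE 0.035, adjusted p = 0.0415), and DDX3X measured 686, 673 and 672 CPM in shNC and 695, 713 and 701 in shDDX21 (0.05, SE 0.021, adjusted p = 0.0226). The mouse call was lost when any of the 6 libraries was left out (adjusted p = 0.0755 to 0.165) or a replicate block was added (0.0938), and the human call without shNC library 2 or 3 or shDDX21 library 2 (0.0766 to 0.132). RLE factors, upper-quartile factors, total counts, a filter of at least 10 counts and DESeq2 also lost the mouse call. Total counts and a filter of at least 1 count lost the human call. Beside the mouse result, the Y-linked genes Kdm5d, Eif2s3y and Uty summed to 80.7 to 89.0 CPM in WT and 168 to 191 in cKO. Their part in it was not tested. DHX29, a factor of translation initiation (-0.26), and DHX36, which resolves G-quadruplexes (-0.19), were lower in human and not called in mouse. Dhx34, a factor of nonsense-mediated decay, measured 23.2, 18.3 and 12.02 CPM in WT and 16.1, 9.89 and 13.1 in cKO, and its groups overlapped (-0.46, adjusted p = 0.209).

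Among the mRNA export helicases, DDX19A and its paralogue DDX19B changed unequally in mouse. DDX19A and DDX19B remodel mRNA-protein particles at the nuclear pore, and their mouse genes lie side by side on chromosome 8 (chr8:110974996-110997800 and chr8:111003188-111031751, mm10, both on the minus strand). Ddx19a measured 216, 205 and 209 CPM in WT and 182, 175 and 188 in cKO, a log2 change of -0.21 (SE 0.042, adjusted p = 0.00703). Ddx19b measured 70.0, 70.1 and 71.2 CPM in WT and 83.3, 83.4 and 80.0 in cKO, a change of 0.22 (SE 0.041, adjusted p = 0.00505). Both sets of groups were apart, in opposite directions, although these genes share bases as given above. In human cells DDX19A measured 24.6, 25.6 and 27.6 CPM in shNC and 15.3, 19.2 and 17.1 in shDDX21 (-0.59, SE 0.076, adjusted p = 3.17e-10), while DDX19B overlapped between groups (-0.02, adjusted p = 0.846). The log2 ratio of DDX19A to DDX19B went from 1.58 to 1.14 in mouse and from 0.47 to -0.10 in human, each with an exact permutation p of 0.1 and 0.12 after adjustment. The log2 ratio of DDX39A to the splicing and export factor DDX39B was -0.22 in WT and -0.09 in cKO (exact permutation p of 0.1, 0.12 adjusted). In human it was 5.19 in shNC and 4.99 in shDDX21 (p of 0.4, also after adjustment). That human ratio rests on DDX39B, whose level is uncertain as given above (44 to 68 counts in shNC libraries). Human DDX19A and DDX19B also share exon bases with other genes on the same strand, as given above. DDX39A was lower in both species, by -0.12 in mouse (adjusted p = 0.0238) and -0.34 in human (adjusted p = 1.49e-13). The mouse call was lost without any of WT libraries 1 to 3 or cKO library 1 or 3 (adjusted p = 0.0512 to 0.0994) and with a replicate block (0.0670), and 17.4% of its exon bases overlap a gene on the other strand. Upper-quartile factors, total counts, DESeq2 and the GC offset also lost this call.

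Members with other roles added single changes. Ddx28, a mitochondrial helicase of ribosome assembly in that organelle, measured 22.3, 20.4 and 20.4 CPM in WT and 16.7, 16.5 and 16.6 in cKO, the groups apart (-0.34, SE 0.071, adjusted p = 0.00881). It had the largest decrease among called mouse members, but with the GC offset the change was -0.20 and the call was lost (adjusted p = 0.127). Its human counterpart overlapped between groups (-0.14, adjusted p = 0.147). The other mitochondrial member, DHX30, was lower in human (-0.27) and not called in mouse (-0.12, and 0.02 with the GC offset). DDX11, a DNA helicase of sister chromatid cohesion with near-identical copies elsewhere in the human genome that could share its reads, measured 50.3, 48.6 and 45.5 CPM in shNC and 31.1, 28.9 and 32.1 in shDDX21 (-0.65, SE 0.056, adjusted p = 7.35e-17). Mouse Ddx11 had an estimate of -0.18 and was not called (adjusted p = 0.0536). Ddx4 (Vasa), a germ-line helicase and the member with the lowest level in mouse, measured 2.02, 2.63 and 2.46 CPM in WT and 4.49, 5.11 and 6.12 in cKO, a log2 change of 1.14 (SE 0.168, adjusted p = 0.00183). Its groups did not overlap and the call held under every alternative.

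Among members with no role assigned, DHX40 was higher in human (42.9, 45.0 and 45.3 CPM in shNC, 51.8, 50.3 and 50.8 in shDDX21; 0.20, SE 0.049, adjusted p = 0.000304) and DHX32 lower (-0.29), while DDX59 and DHX57 were not called. In mouse 0 of these 4 were called by edgeR or DESeq2 and 1 had an unadjusted p under 0.05, with estimates from -0.16 to -0.04. With the GC offset edgeR called Dhx32 lower (adjusted p = 0.0387). Dhx57 measured 25.6, 25.8 and 23.0 CPM in WT and 24.5, 22.6 and 21.3 in cKO, with overlapping groups. Of the noncoding members, DDX20P1 was called higher from low levels (1.16, 1.11 and 1.01 CPM in shNC, 1.59, 2.13 and 1.65 in shDDX21; 0.70, SE 0.279, adjusted p = 0.0297), a call lost without any of the shNC libraries or without shDDX21 library 2 (adjusted p = 0.0512 to 0.148). The DDX20P1 call was also lost with a filter of at least 1 count and with DESeq2. DDX11-AS1 (1.01, 0.522 and 1.13 CPM in shNC, 0.667, 1.01 and 1.196 in shDDX21) and DDX19A-DT (1.01, 0.979 and 0.563 in shNC, 1.08, 0.948 and 0.911 in shDDX21) overlapped between groups.

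Calls can also be read by the last residue of the motif, a split made after the values were seen. In human, 10 of 15 members whose motif ends in histidine were lower and 1 higher, beside 18 lower and 2 higher of 28 whose motif ends in aspartate and 27.4% and 25.3% of all genes, with classes taken from the mouse sequence. In mouse, 0 of 15 and 9 of 29 were lower, beside 15.8% of all genes, and 0 and 2 were higher, beside 20.7%. Of the 15, 3 had an unadjusted p under 0.05 and DESeq2 called 2. Mouse medians of the log2 change were -0.12 for the histidine and -0.07 for the aspartate class. In human they were -0.17 and -0.24. Without WT library 3 and cKO library 2, edgeR called 16 mouse members lower. Among them were Dhx16, Dhx34, Dhx37 and Dhx38 of the histidine class (adjusted p = 0.00616 to 0.0274). The GC offset gave 12 lower members, with Dhx37 (adjusted p = 0.0100) and Ddx11 (0.0111) from this class. The difference between classes was not tested.

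Of the 44 genes in both species, 6 were lower in both (DDX6, DDX19A, DDX23, DDX39A, DDX46 and DDX51), against 10.4% of 10313 matched genes, 0 were higher in both by edgeR, by DESeq2 or at an unadjusted p under 0.05, against 6.43% by edgeR, and 1 (DDX3X) was called in opposite directions, against 12.8%. A further 25 were called in human alone, against 38.7% of matched genes, 3 in mouse alone (Ddx28, Ddx39b and Ddx19b), against 11.6%, and 9 in neither, against 20%. Counts of calls depend on the spread between libraries, which differed between experiments, so the difference between the changes was tested directly with an interaction term. That test used a shared estimate of spread for each gene over all 12 libraries. It thus did not model the unequal spread (10.5% in mouse, 2.23% in human). For DDX19B the interaction SE was 0.065, below the SE of 0.077 in human alone. The mouse change was above the human one in 19 members, against 35.8% of matched genes, and below it in 4, against 20.4%, with a median difference of 0.14 beside 0.09 for all matched genes. Species, cell source and the means of lowering DDX21 differ together between the experiments and cannot be told apart.

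Among the differences that passed the test, the largest were those of DDX1, DDX18 and DDX5, whose values by library are given above. The mouse log2 change exceeded the human one by 1.15 for DDX1 (SE 0.046, adjusted p = 3.36e-09), by 0.80 for DDX18 (SE 0.051, adjusted p = 1.39e-07) and by 0.64 for DDX5 (SE 0.052, adjusted p = 9.49e-07). DDX17 differed in the other direction, by -0.26 (SE 0.037, adjusted p = 0.000110). DDX6, although lower in both, fell more in human (difference 0.31, adjusted p = 3.42e-05), as did DDX19A (0.38, adjusted p = 0.00517) and DDX39A (0.22, adjusted p = 0.00126). For DDX23, DDX46 and DDX51 a difference was not detected, at 0.08 (SE 0.059), 0.08 (SE 0.045) and 0.06 (SE 0.087).

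**Figure D4:**
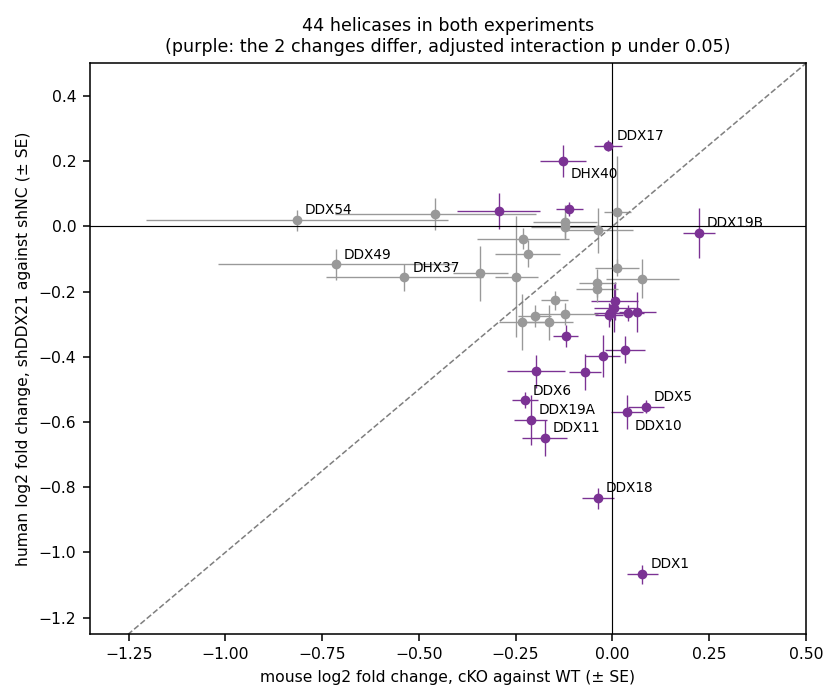
Human log2 fold change (vertical axis, shDDX21 against shNC) against mouse log2 fold change (horizontal axis, cKO against WT) for 44 helicase genes, with standard errors. Purple points are the 23 genes whose changes differ between experiments by the interaction test, and the dashed line marks equal changes. DDX1, DDX18 and DDX5 lie below the line, with mouse values of 0.08, -0.04 and 0.09, and DDX17 lies above it.

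Proteins that work with these helicases were read from 2 lists. Of the cofactor list (G-patch activators, translation, decay, export and SMN complex partners), 25 of 43 tested were lower and 4 higher in human, against 27.4% and 25.3% of all genes, with a median of -0.19. In mouse 13 of 44 were lower and 3 higher, against 15.8% and 20.7%, with a median of -0.13. Among called genes, the largest human decreases were EIF4G2, a translation initiation scaffold (-1.05), PINX1, a nucleolar G-patch protein (-1.01), and GEMIN5 of the SMN complex (-0.89). PINX1 was low, at 3.13 ± 0.225 CPM (SD, n = 3) in shNC and 1.55 ± 0.263 in shDDX21, below the 5 CPM minimum used for members. The largest increases were CMTR1, a cap methyltransferase (0.28), GPKOW (0.19) and PAIP1 (0.18). The largest decreases among called genes in mouse were Tfip11, the G-patch partner of DHX15 (-0.66), Nkrf (-0.35) and Gle1, an activator of DDX19 at the pore (-0.32), and the largest increases were Gpatch2 (0.26), Rbm5 (0.14) and Eif4g3 (0.13). Tfip11 spread widely, at 76.3 ± 12.9 CPM (SD, n = 3) in WT and 48.2 ± 12.9 in cKO (SE 0.203, edgeR adjusted p = 0.0389). Calls in these lists are given without the GC offset. Of the other RNA helicases of the same superfamily, 9 of 19 were lower and 3 higher in human, again beside 27.4% and 25.3%. In mouse 3 of 18 were lower, a share near the 15.8% of all genes, and 0 were higher, beside 20.7% (0 higher also by DESeq2, with 2 at an unadjusted p under 0.05). EIF4A3, the helicase of the exon junction complex, was lower in both, by -0.52 in human and -0.33 in mouse. DICER1, which cuts microRNA precursors, had the largest human decrease (-1.05), followed by EIF4A3 and MTREX, a helicase of the nuclear exosome (-0.42), while MOV10 (0.75), HELZ2 (0.75) and EIF4A2 (0.49) were higher. In mouse Ythdc2 (-0.28) and Eif4a2 (-0.16) were the other called decreases.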

How the data were processed

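Polyadenylated RNA of 12 libraries was measured. Per the submitters' processing notes, STAR, featureCounts and DESeq2 were used with the mm10 and hg38 builds. Versions, strand setting and the treatment of reads in shared exons are not given in the sources used here. Deposited raw tables give a count of reads for each gene as whole numbers, with positions and exon length. The deposited normalised signal is the count over a library-specific constant (largest relative deviation 5e-10) and served for symbols only. The authors' log2 columns beside it were not used. All 45 mouse members had the same chromosome, start and end in GENCODE M21.

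The test was the edgeR 4.0.16 quasi-likelihood test under R 4.3.3 (filterByExpr, TMM, glmQLFit, glmQLFTest; two-sided, Benjamini-Hochberg over all genes, threshold 0.05), separately by experiment, and over all 12 libraries for the interaction, matching genes by symbol. The SE was taken as the size of the log2 change divided by the root of the F statistic. All 45 and 47 members passed the filter on low counts (lowest control count 8), so depth limited few of them. The scripts were tested on simulated data. Alternatives were other scalings (RLE, upper-quartile, total counts), filters (at least 1 count; at least 10 in every library), leaving out each library, a replicate block and DESeq2 1.42.0. The GC offset (loess, span 0.4; 99.9% of genes with a value) and the joint removal of WT library 3 and cKO library 2 were added after seeing the data.

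Members, role lists and cofactor lists were chosen with earlier results of these data known. Values by library were printed for called members with at least 0.3 log2 change in both experiments (none), the 6 largest changes per direction and experiment among called members with a mean of at least 5 CPM, the 3 highest and lowest control RPKM, and the 3 smallest interaction p. Up to 3 genes per list, direction and experiment were named. Other genes given by library were chosen after their values were seen.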

Additional observations from a re-analysis of the deposited data

Results flagged for a closer look

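For 23 of 44 helicases the change in mouse differed from that in human by the edgeR interaction test (Benjamini-Hochberg adjusted p under 0.05). Values are the mouse log2 fold change minus the human one. The mouse change was above the human one for DDX1 (1.15), DDX18 (0.80), DDX5 (0.64), DDX10 (0.61), DDX11 (0.47), DDX56 (0.41), DDX19A (0.38), DDX24 (0.37), DDX20 (0.37), DHX29 (0.32), DDX6 (0.31), DHX9 (0.31), DHX8 (0.26), DHX15 (0.26), DDX31 (0.25), DDX55 (0.25), DDX19B (0.24), DDX52 (0.24) and DDX39A (0.22). It was below the human one for DHX16 (-0.34), DHX40 (-0.33), DDX17 (-0.26) and DDX3X (-0.17). Under 18 alternatives 18 of these differences kept their call and none of the 23 changed sign. The 5 that lost it under at least 1 alternative were DHX16 (largest adjusted p 0.105), DDX52 (0.145), DDX31 (0.0715), DDX55 (0.0665) and DDX3X (0.247). These alternatives did not include the GC offset or the joint removal of WT library 3 and cKO library 2. With that offset the mouse change of Dhx16 went from -0.29 to -0.06, and that of Ddx56 from 0.03 to 0.13.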

How the results depend on the processing

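The cause of the shifts given here was not tested. Under total counts 5 mouse members were lower, 0 of them ribosome assembly helicases, and 3 were lower in both species, 2 differences lay below human, and the human median control level was 9.39 RPKM. Ribosome assembly helicases lower in mouse numbered 3 with RLE factors, 2 with upper-quartile factors, 4 with all genes of at least 1 count, 3 with DESeq2, and 5 with the GC offset or without WT library 3 and cKO library 2. The GC offset gave 4 higher mouse members and 10 lower in both species, and removing those 2 libraries gave 16 lower mouse members. In human, the filter of at least 1 count gave 2 higher members, and upper-quartile factors gave 1 higher ribosome assembly helicase.

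Leaving out 1 library at a time gave 5 to 13 lower mouse members (5 without cKO library 3), 2 to 2 higher, 0 to 6 lower ribosome assembly helicases in mouse, 27 to 29 lower and 2 to 4 higher human members, 10 to 11 lower human ribosome assembly helicases, 3 to 8 lower in both, and 16 to 22 differences above and 3 to 9 below human (9 without WT library 3, 8 without cKO library 1). No called member changed direction, but 15 of the 34 uncalled in mouse and 9 of the 14 in human did under at least 1 alternative, and the mouse ribosome assembly median was 0.03 under total counts. Whether replicate numbers pair the libraries is not stated in the labels. Deviations of same-numbered mouse libraries from their group means correlated at 0.644, -0.421 and 0.0864 across genes. Those of WT 3 correlated at 0.714 with cKO 2 and at -0.751 with cKO 1. Deviations within a group sum to 0 and here followed GC content, so these values cannot decide whether the numbers pair libraries. With the replicate block 2 mouse ribosome assembly helicases were lower, and 9 mouse and 29 human members were lower, with Ddx39a (adjusted p = 0.0670) and Ddx3x (0.0938) losing their calls and Dhx37 (0.0205) and Dhx16 (0.0300) gaining one. DESeq2, the GC offset and the joint removal of WT library 3 and cKO library 2 were not run for the interaction.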
